A study of Mus musculus with 4 samples.

Results

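Haematopoietic stem cells (HSCs) with a clear count of Cd34 transcript were set against HSCs from the same libraries in which no Cd34 was counted. All cells were wild-type mouse HSCs, taken from the bone marrow of animals aged 8 weeks, enriched on Kit beads and sorted singly by the ESLAMSK phenotype of the labels, which takes CD150-positive, CD48-negative cells that carry EPCR (CD201) from the lineage-negative, Kit-positive and Sca-1-positive fraction. The study sorted them to compare CD27- with CD27+ cells, but each of the 4 libraries is labelled with both gates and the gate of a cell is not known here. A cell was called Cd34-positive with at least 3 counts of Cd34 and Cd34-zero with 0 counts, after a minimum of 10000 counts and 1000 genes per cell. Of the 297 cells deposited, 292 passed those minima, and 15 of these lay in 2 runs of neighbouring cells, in libraries 2 and 4, that earlier results had shown to stand apart and that were left out. The 277 cells kept held 109 Cd34-positive cells, 139 Cd34-zero cells and 29 cells with 1 or 2 counts that entered neither side. Sorting on CD34 protein is not named in the labels, so both sides are defined by transcript alone.

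CD34 is a heavily glycosylated sialomucin of the cell surface that is also made by vascular endothelium, where it can carry the sugars that L-selectin binds. In the adult mouse the most durable HSCs are known for little or no CD34 protein on the surface, while short-lived HSCs and multipotent progenitors carry it, together with rising Flt3 and CD27. CD34 protein and Cd34 transcript need not match in a single cell.

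Cd34 lies on chromosome 1 (chr1:194938819-194961279, + strand, GRCm38, GENCODE M21), and its level here chose the cells, so it is described and not tested. In library 1, 29 of 74 kept cells were Cd34-positive, or 39.2% (95% exact binomial interval 28.0 to 51.2%). Library 2 had 27 of 67 (40.3%, 28.5 to 53.0%), library 3 had 27 of 71 (38.0%, 26.8 to 50.3%) and library 4 had 26 of 65 (40.0%, 28.0 to 52.9%). The share was thus close to 39.4% ± 1.02 (SD, n = 4 libraries) throughout. The Cd34-positive cells held 98.9% of all Cd34 counts, with a median of 17 and a maximum of 157 counts per cell. In counts per 1000000 counts of the cell (CPM), Cd34 ran from 43.8 to 922 in single Cd34-positive cells, with a median of 198 and quartiles of 131 and 364. Just inside the threshold stood 1 cell with 4 counts and 3 cells with 5, and just outside it 6 cells with 2 counts and 23 with 1. No cell had exactly 3, and 94 of the 109 members had 10 or more. No source used here says whether PCR copies were collapsed by molecular identifier, so a count is not a molecule and every interval covers counting error only.

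**Figure D1:**
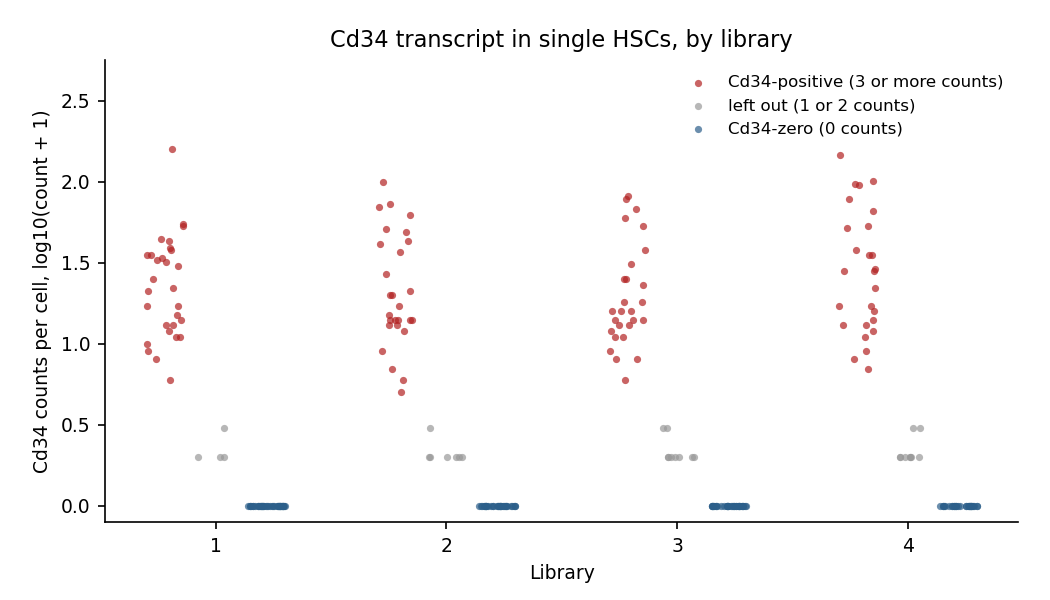
Cd34 counts in single HSCs (log10 of count + 1, vertical axis) by library (horizontal axis), 1 point per cell, with the 109 Cd34-positive cells at the left of each library, the 29 cells with 1 or 2 counts in the middle and the 139 Cd34-zero cells at the right. A gap separates the lowest Cd34-positive cell, with 4 counts, from the cells left out, and the spread of positive cells is alike in the 4 libraries.

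Depth differed between the sides, and the rule itself favours such a difference. It uses raw counts, so a deeper cell reaches 3 counts of Cd34 more readily and a shallow cell more readily shows 0. The median total count per cell was 109743, 125071, 77879 and 152478 in Cd34-positive cells of libraries 1 to 4, against 76438, 102070, 59076 and 142675 in Cd34-zero cells. The positive side thus had the higher median in each of the 4 libraries, and single cells ran from 14613 to 346876 counts. With each cell thinned to 30000 counts, Cd34-positive cells still showed more genes, with medians of 2783, 2712, 2766 and 2807 genes against 2522, 2462, 2636 and 2454 in Cd34-zero cells. That difference was 248 ± 91.9 genes (SD, n = 4 libraries), in the same direction in 4 of 4, with an exact two-sided sign-flip p of 0.125, the smallest that 4 libraries allow. Without thinning the difference was 370 genes. The thinned comparison kept the sides that the unthinned Cd34 counts had set. The share of mitochondrially encoded counts was 1.40% ± 0.146 in Cd34-positive cells and 1.42% ± 0.102 in Cd34-zero cells (SD, n = 4 libraries, exact sign-flip p = 1), so these medians differed by less than their spread. The median was higher in Cd34-positive cells in 3 of 4 libraries. Ribosomal protein genes took 19.7% ± 0.489 of the counts in Cd34-positive and 19.8% ± 0.750 in Cd34-zero cells (SD, n = 4 libraries, exact sign-flip p = 1). The part of depth and detection in the gene differences below was not tested. For both named calls, Ctla2a and Car1, the share of cells with a count is given at equal depth too, though Car1 was not tested in thinned cells.

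**Figure D2:**
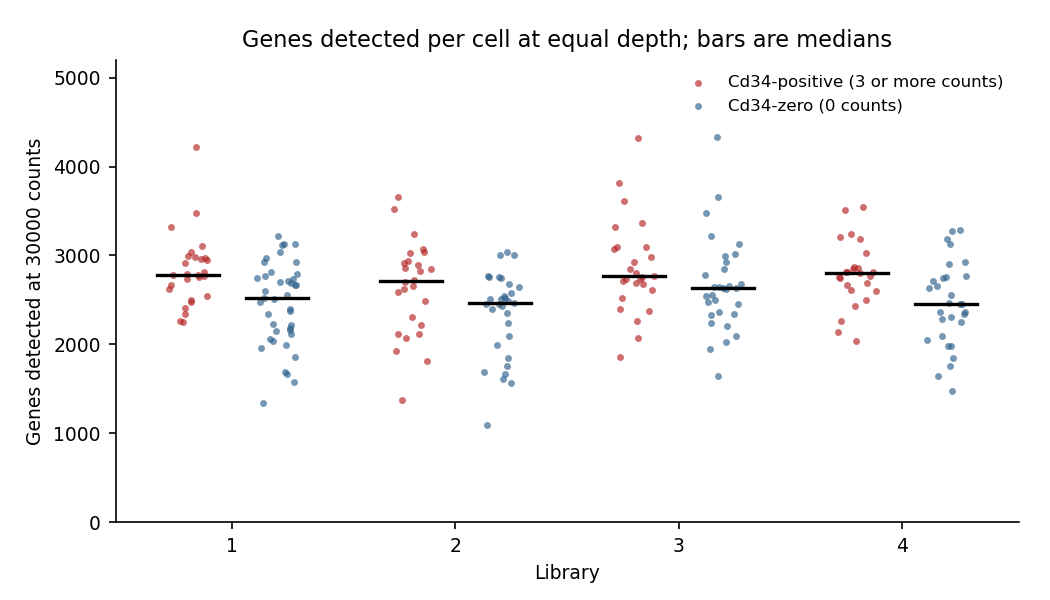
Genes detected per cell at 30000 counts (vertical axis) by library, 1 point per cell, with Cd34-positive cells at the left and Cd34-zero cells at the right of each library and bars at the medians. The 4 medians of Cd34-positive cells, from 2712 to 2807, lie above those of Cd34-zero cells, from 2454 to 2636, while the single cells overlap widely.

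For gene comparisons the raw counts of each side were summed per library, which gave 8 sums of 2338081 to 4762534 counts. Both sides of a library were compared within it (edgeR quasi-likelihood test with library as block, Benjamini-Hochberg adjustment over 10006 genes, Cd34 left out). No label ties a library to its own mouse, so p-values cover the variation among these 4 libraries alone, and that variation could be technical. At an adjusted p under 0.05, 2 of 10006 genes passed (0.02%), with Ctla2a higher in Cd34-positive cells (1 gene, 0.00999%) and Car1 lower (1 gene, 0.00999%). At an unadjusted p under 0.05 there were 398 genes (3.98%), of which 202 were higher (2.02%) and 196 lower (1.96%). The median log2 fold change over all genes was -0.01 and the median standard error was 0.60, or 0.42 for the 6681 genes at a mean of 20 CPM or more. A change of about that size in a low gene was not detectable with these libraries, and much larger ones could also fail to pass. Serpinb1a, for example, had a log2 fold change of 4.73 (SE 0.89) and did not pass. Apart from Ctla2a and Car1, then, each gene below is given by its values and did not pass.

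**Figure D3:**
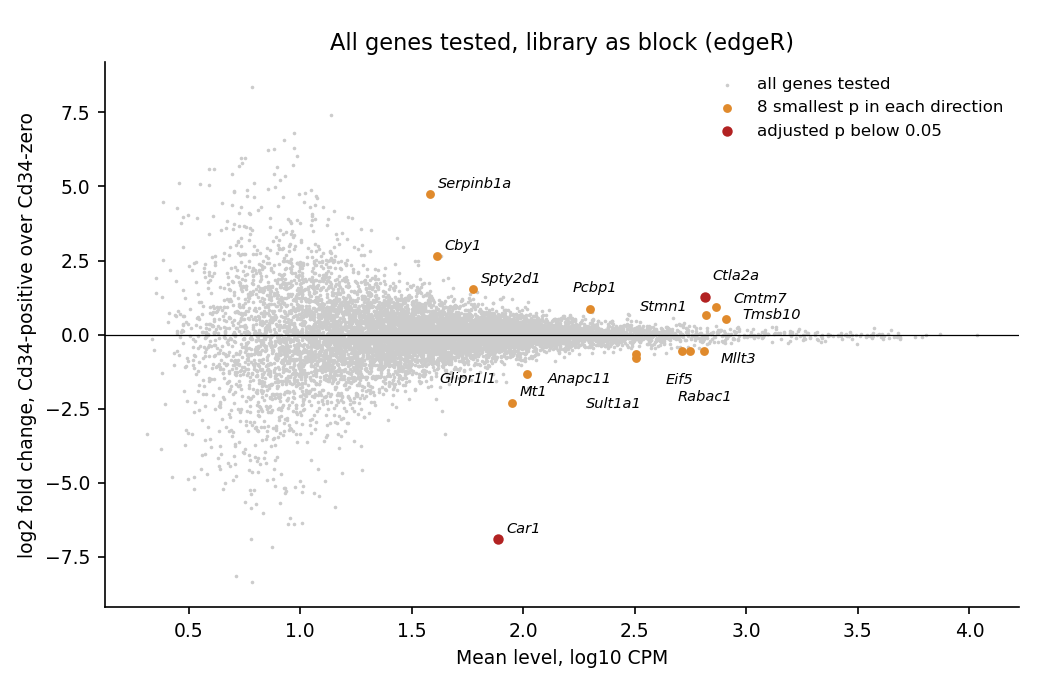
Log2 fold change of Cd34-positive over Cd34-zero cells (vertical axis) against mean level (log10 CPM, horizontal axis) for the 10006 genes tested, with the 8 smallest p-values in each direction in orange and the genes past the adjusted threshold in red. Ctla2a, at 1.27, and Car1, at -6.91, are the red points, and the low genes at the left scatter most.

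Ctla2a rose in Cd34-positive HSCs. It encodes a small cysteine protease inhibitor that blocks cathepsin L, and it lies on chromosome 13 (chr13:60934155-60936625, - strand, GRCm38). Its level was 833, 864, 1108 and 888 CPM in Cd34-positive cells of libraries 1 to 4, against 394, 357, 385 and 370 CPM in Cd34-zero cells. Every positive sum lay far above every zero sum, a pattern that 167 of 10006 genes (1.67%) showed in this direction. The log2 fold change was 1.27 (SE 0.13, adjusted p = 0.000966, edgeR quasi-likelihood with Benjamini-Hochberg). Ctla2a was counted in 96 of 109 Cd34-positive and 109 of 139 Cd34-zero cells, and at equal depth in 80 of 104 Cd34-positive (76.9%) and 88 of 133 Cd34-zero cells (66.2%). The difference therefore lay in level as well as in the share of cells with a count. Median Ctla2a in single cells was 521, 681, 687 and 507 CPM on the positive side, against 36.5, 190, 168 and 263 CPM on the zero side. Single cells overlapped, and a Cd34-zero cell of library 1 reached 4265 CPM. In the 29 cells with 1 or 2 Cd34 counts, Ctla2a was 143, 240, 571 and 141 CPM, so these cells did not stand between the sides in libraries 1, 2 and 4.

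Ctla2a passed in 15 of 16 alternative analyses, with log2 fold changes of 1.04 to 1.35 and adjusted p-values of 2.39e-18 to 0.0536. The exception was the fit without library 3, whose log2 fold change had the same sign but whose adjusted p was the highest of these, 0.0536 (edgeR quasi-likelihood with Benjamini-Hochberg). The paralog Ctla2b had 24 counts in the kept cells, against 18037 for Ctla2a, and no source used here says how reads shared by the copies were counted.

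The region around the start of Cd34, the gene of the rule, and that of Ctla2a, the gene that rose with it, are shown to let their start regions be read side by side. Each runs 5′ to 3′ on the gene's strand, from 250 bases before to 50 after the annotated start (RefSeq, GRCm38.p6; Cd34 chr1:194938571-194938870, + strand; Ctla2a chr13:60936576-60936875, - strand), and capitals mark matches to a GATA motif or an ETS motif.
Cd34: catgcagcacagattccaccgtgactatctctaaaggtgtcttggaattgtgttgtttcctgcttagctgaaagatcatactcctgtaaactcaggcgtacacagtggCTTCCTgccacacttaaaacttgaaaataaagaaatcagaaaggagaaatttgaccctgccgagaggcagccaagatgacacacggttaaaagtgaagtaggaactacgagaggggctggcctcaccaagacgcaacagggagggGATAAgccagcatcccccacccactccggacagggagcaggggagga
Ctla2a: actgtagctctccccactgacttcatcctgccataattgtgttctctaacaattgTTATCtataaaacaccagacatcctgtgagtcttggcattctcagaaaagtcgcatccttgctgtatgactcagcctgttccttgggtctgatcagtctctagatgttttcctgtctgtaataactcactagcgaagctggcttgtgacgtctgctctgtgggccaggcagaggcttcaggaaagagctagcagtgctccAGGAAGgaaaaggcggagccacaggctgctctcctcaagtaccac
The GATA motif searched was GATAA, the ETS motif was AGGAAG and a RUNX motif was TGTGGT, each on both strands, so that a match on the opposite strand shows as its reverse complement. The GATA and ETS motifs each occurred 1 time in the Cd34 window and 1 time in this Ctla2a window, with no overlap between them. The RUNX motif was found in neither. Of 27025 RefSeq windows of that length, 25.8% held the GATA motif, 35.1% the ETS motif and 16.9% the RUNX motif. A second RefSeq window of Ctla2a held the ETS motif and not the GATA motif, and the window of Cmtm7, described next, held none of them. These are matches of letters only.

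Cmtm7 had the second smallest p among the genes that were higher in Cd34-positive cells, and did not pass. It encodes a transmembrane protein of the CKLF-like MARVEL family, on chromosome 9 (chr9:114756836-114781856, - strand, GRCm38). Its level was 951, 894, 996 and 998 CPM in Cd34-positive cells, against 600, 533, 347 and 548 CPM in Cd34-zero cells. The sums did not overlap, and the log2 fold change was 0.93 (SE 0.15, adjusted p = 0.0979, edgeR quasi-likelihood with Benjamini-Hochberg). At equal depth Cmtm7 was counted in 99 of 104 Cd34-positive cells (95.2%) and 101 of 133 Cd34-zero cells (75.9%). It passed in 6 of 16 alternatives, among them both that thinned cells to equal depth, with log2 fold changes of 0.74 to 1.04 and adjusted p-values of 2.09e-06 to 0.595.

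The other genes with the smallest p-values on the higher side were Tmsb10, Stmn1, Pcbp1, Serpinb1a, Cby1 and Spty2d1. Tmsb10, an actin-binding thymosin, was 995, 806, 933 and 1135 CPM in Cd34-positive cells against 593, 622, 681 and 728 CPM in Cd34-zero cells, without overlap (log2 fold change 0.54, SE 0.12). Stmn1, or stathmin, which destabilises microtubules and is typical of proliferating progenitors, was 862, 890, 931 and 555 CPM in Cd34-positive cells against 403, 459, 692 and 492 CPM in Cd34-zero cells. In library 4 its difference was small, and the sums overlapped. Pcbp1, an RNA-binding protein, averaged 257 ± 53.2 CPM in Cd34-positive and 140 ± 31.3 CPM in Cd34-zero cells (SD, n = 4 libraries).

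Serpinb1a, an intracellular inhibitor of neutrophil serine proteases, was a low gene with a wide gap. It was 52.1, 51.2, 80.8 and 98.5 CPM in Cd34-positive cells, against 17.7, 1.12, 0.424 and 2.52 CPM in Cd34-zero cells. A count was found in 27 of 109 Cd34-positive cells and 6 of 139 Cd34-zero cells, and at equal depth in 20 of 104 Cd34-positive (19.2%) and 4 of 133 Cd34-zero cells (3.01%). A single cell held 25.1% of its counts, and its adjusted p was 0.294 (edgeR quasi-likelihood with Benjamini-Hochberg, log2 fold change 4.73, SE 0.89). Cby1, a beta-catenin-binding protein, averaged 68.8 ± 31.1 CPM in Cd34-positive cells against 12.9 ± 11.5 CPM in Cd34-zero cells (SD, n = 4 libraries), without overlap. Spty2d1, a histone chaperone, averaged 85.3 ± 14.1 CPM in Cd34-positive cells against 33.5 ± 23.2 CPM in Cd34-zero cells (SD, n = 4 libraries). A shared direction in all 4 libraries was part of the rule that chose these genes and those of smallest p on the lower side.

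**Figure D4:**
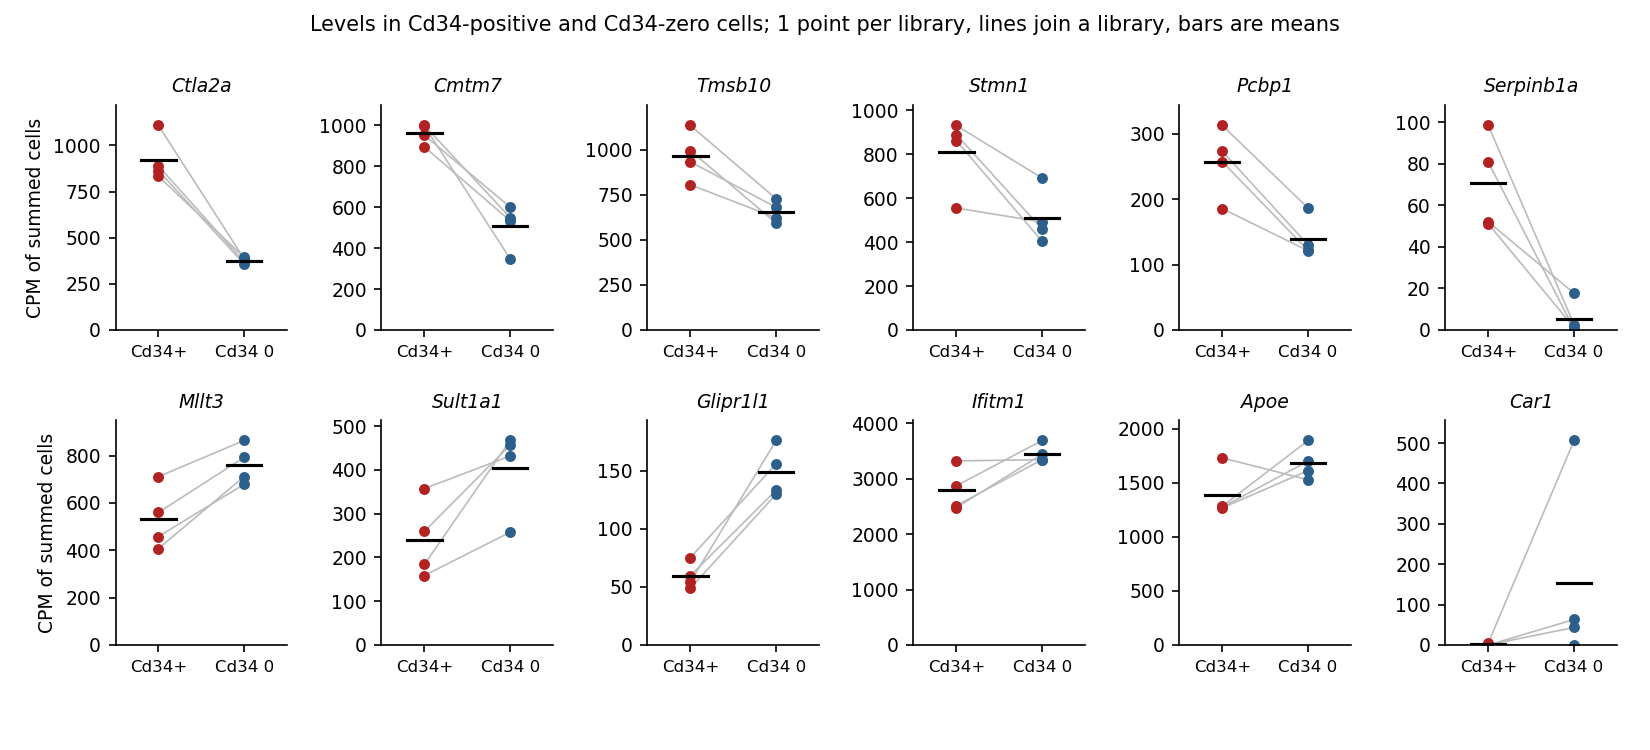
CPM of summed cells (vertical axis, from 0) in Cd34-positive cells (red, left) and Cd34-zero cells (blue, right) for 12 genes, 1 point per library, with lines joining a library and bars at the means. Ctla2a shows no overlap (833 to 1108 CPM in Cd34-positive cells against 357 to 394 CPM in Cd34-zero cells), Mllt3 spans 407 to 711 CPM in Cd34-positive cells against 679 to 864 CPM in Cd34-zero cells, and Car1 rests mainly on library 3, at 507 CPM in Cd34-zero cells.

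On the lower side Car1 passed, but on few cells. Car1 is a cytosolic carbonic anhydrase abundant in erythroid cells, on chromosome 3 (chr3:14766216-14808368, - strand, GRCm38). It was 0.589, 0, 5.13 and 0 CPM in Cd34-positive cells, against 43.4, 0.280, 507 and 63.2 CPM in Cd34-zero cells. The sides overlapped, and library 3 stood far above the rest. The log2 fold change was -6.91 (SE 0.60, adjusted p = 0.000376, edgeR quasi-likelihood with Benjamini-Hochberg). The share of cells with any Car1 count was 10.1% on either side, with 11 of 109 Cd34-positive and 14 of 139 Cd34-zero cells, and at equal depth it was 4.81% (5 of 104) in Cd34-positive and 6.77% (9 of 133) in Cd34-zero cells. Of those 11 Cd34-positive and 14 Cd34-zero cells, 10 and 10 were in library 3. A single Cd34-zero cell held 157 of 159 Car1 counts in library 1, 1177 of 1210 in library 3 and 297 of 301 in library 4. When the 3 cells with at least 100 Car1 counts were left out, an alternative chosen after seeing the data, no gene was lower at the threshold. Car1 itself then fell below the filter on low counts and was not tested. It was likewise not tested without library 3, without cycling cells and in both fits on thinned cells. Where tested, it did not pass by limma on mean CPM or without the library block, and it passed in the other 9 alternatives. Over the 11 of 16 alternatives that tested Car1, its log2 fold change ran from -7.12 to -2.71 and its adjusted p from 1.09e-19 to 0.462.

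The next smallest p-values on the lower side were those of Glipr1l1, Mt1, Mllt3, Sult1a1, Eif5, Anapc11 and Rabac1, none of which passed. Mllt3, a chromatin reader of the super elongation complex that is known to sustain HSC self-renewal, was 458, 560, 407 and 711 CPM in Cd34-positive cells, against 679, 793, 712 and 864 CPM in Cd34-zero cells. The sums overlapped slightly (log2 fold change -0.55, SE 0.13). Sult1a1, a sulfotransferase used as an HSC marker gene, was 184, 357, 159 and 259 CPM in Cd34-positive cells against 467, 432, 258 and 457 CPM in Cd34-zero cells (log2 fold change -0.79, SE 0.19). Glipr1l1, a CAP-domain protein, was 59.7, 75.2, 54.3 and 48.9 CPM in Cd34-positive cells against 133, 156, 176 and 130 CPM in Cd34-zero cells, without overlap. That is a log2 fold change of -1.34 (SE 0.27), with an adjusted p of 0.358 (edgeR quasi-likelihood with Benjamini-Hochberg).

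Mt1, a metal-binding metallothionein, averaged 29.6 ± 27.6 CPM in Cd34-positive and 148 ± 143 CPM in Cd34-zero cells (SD, n = 4 libraries), and 28.6% of its counts came from 1 cell. Without the 3 Car1-high cells its log2 fold change was -1.60 in place of -2.30. Eif5, a translation initiation factor, averaged 422 ± 60.6 CPM in Cd34-positive cells against 609 ± 40.9 CPM in Cd34-zero cells, without overlap (SD, n = 4 libraries). Anapc11, the RING subunit of the anaphase-promoting complex, averaged 251 ± 50.5 CPM in Cd34-positive cells against 387 ± 51.8 CPM in Cd34-zero cells (SD, n = 4 libraries), and 175 of 10006 genes (1.75%) were lower without overlap as it was. Rabac1, a prenylated Rab acceptor, averaged 455 ± 117 CPM in Cd34-positive cells against 661 ± 109 CPM in Cd34-zero cells (SD, n = 4 libraries).

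Most antigens of the sort were counted in most cells of both sides, but Slamf1 was not. Ly6a, the gene of Sca-1, was counted in 103 of 109 Cd34-positive and 126 of 139 Cd34-zero cells and averaged 651 ± 80.8 CPM in Cd34-positive and 659 ± 71.3 CPM in Cd34-zero cells (SD, n = 4 libraries). Kit, the receptor of stem cell factor, averaged 248 ± 57.2 CPM in Cd34-positive and 184 ± 61.0 CPM in Cd34-zero cells, with a log2 fold change of 0.45 (SE 0.25) that did not pass. Procr, the gene of EPCR, averaged 318 ± 115 CPM in Cd34-positive and 268 ± 79.2 CPM in Cd34-zero cells (SD, n = 4 libraries). Slamf1, the gene of CD150, was 60.9, 77.4, 4.70 and 28.6 CPM in Cd34-positive cells against 118, 75.7, 50.8 and 26.9 CPM in Cd34-zero cells, and the sums overlapped. It had a count in only 26 of 109 Cd34-positive cells (23.9%) and 38 of 139 Cd34-zero cells (27.3%). Cd48, which the gate excludes, had a count in 2 of 109 Cd34-positive cells and 0 of 139 Cd34-zero cells.

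Flt3 and Cd27, which mark multipotent progenitors, were set beside Cd34. Flt3, a receptor tyrosine kinase, was 25.6, 14.1, 27.8 and 33.6 CPM in Cd34-positive cells, against 0.276, 12.1, 5.51 and 9.45 CPM in Cd34-zero cells. It had a count in 20 of 109 Cd34-positive cells (18.3%) and 8 of 139 Cd34-zero cells (5.76%), and at equal depth in 18 of 104 Cd34-positive (17.3%) and 8 of 133 Cd34-zero cells (6.02%). The sums did not overlap, but Flt3 was low and its log2 fold change of 2.34 had an SE of 1.16 (adjusted p = 1.00, edgeR quasi-likelihood with Benjamini-Hochberg). Cd27 was 149, 181, 286 and 207 CPM in Cd34-positive cells against 212, 153, 164 and 139 CPM in Cd34-zero cells, higher in 3 of 4 libraries, with overlap. A count of Cd27 was found in 70 of 109 Cd34-positive and 75 of 139 Cd34-zero cells, or at equal depth in 60.6% of Cd34-positive and 48.9% of Cd34-zero cells. The log2 fold change of Cd27 was 0.27 (SE 0.24).

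Among the other genes followed, Vwf, the platelet adhesion protein that marks platelet-biased HSCs, averaged 55.8 ± 37.4 CPM in Cd34-positive and 88.0 ± 37.9 CPM in Cd34-zero cells (SD, n = 4 libraries). It was lower in 4 of 4 libraries with a log2 fold change of -0.90 (SE 0.41), and at equal depth had a count in 27 of 104 Cd34-positive and 46 of 133 Cd34-zero cells. Hlf and Mecom, transcription factors of HSCs, had log2 fold changes of -0.20 (SE 0.16) and -0.12 (SE 0.17). H2-Aa, an MHC class II chain, had 0.28 (SE 0.30) and Cdk6, a kinase of cell cycle entry, had -0.44 (SE 0.44). Mki67, a marker of cycling cells, had a count in 4 of 109 Cd34-positive and 11 of 139 Cd34-zero cells.

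The genes were also read in lists, each described by how many of its tested genes were above or below 0 and by its median log2 fold change, beside -0.01 and 4905 of 10006 genes above 0 (49%) over all genes tested. Of all genes tested, 2.02% were higher and 1.96% lower at an unadjusted p under 0.05. HSC identity genes leaned to the Cd34-zero side. Of 35 tested, 31 had a log2 fold change below 0 and 4 above it, with a median of -0.27 and, over 16 alternatives, of -0.36 to -0.19. None passed; 8 were lower and 0 higher at an unadjusted p under 0.05, among them Mllt3, Sult1a1, Ifitm1, Ifitm3, Pdzk1ip1, Tcf15 and Tgm2, of which the last 3 are named after their values were seen. The list summed to 11031 ± 1130 CPM in Cd34-positive cells and 13015 ± 588 CPM in Cd34-zero cells (SD, n = 4 libraries), lower in 4 of 4. Ifitm1, an interferon-induced membrane protein abundant in HSCs, was 2479, 2873, 2515 and 3322 CPM in Cd34-positive cells against 3441, 3691, 3345 and 3343 CPM in Cd34-zero cells. The gap in library 4 was small, though the sums did not overlap. Ifitm3, its relative, averaged 1689 ± 174 CPM in Cd34-positive cells against 1903 ± 114 CPM in Cd34-zero cells (SD, n = 4 libraries).

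Genes of quiescence and dormancy leaned the same way, with 16 of 24 below 0, 8 above it and a median of -0.29 (-0.37 to -0.06 over 16 alternatives). The medians of single libraries had an SD of 0.32, larger than that median in size. The summed level was higher in Cd34-positive cells in 1 of 4 libraries. Foxo3, named after its values were seen, was higher in 4 of 4 libraries (log2 fold change 1.16, SE 0.55) and did not pass. None passed, and 4 were lower and 0 higher at an unadjusted p under 0.05, beside 1.96% lower and 2.02% higher over all genes tested. Apoe, the apolipoprotein, averaged 1388 ± 227 CPM in Cd34-positive and 1682 ± 156 CPM in Cd34-zero cells (SD, n = 4 libraries), with library 2 on the positive side, at 1729 CPM, apart from the other libraries. Egr1, an immediate early factor known for keeping HSCs quiescent, was 351, 364, 540 and 313 CPM in Cd34-positive cells against 564, 641, 384 and 534 CPM in Cd34-zero cells, with library 3 going the other way. Rarb, a retinoic acid receptor, was 0, 0, 0.855 and 0.251 CPM in Cd34-positive cells against 11.9, 18.5, 15.7 and 23.5 CPM in Cd34-zero cells. The 4th was Sult1a1, given above, which both lists hold. Txnip, a highly expressed member that restrains glucose uptake, averaged 1444 ± 155 CPM in Cd34-positive and 1395 ± 246 CPM in Cd34-zero cells, a difference within the spread (SD, n = 4 libraries).

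Lymphoid and multipotent progenitor genes leaned to the Cd34-positive side. Of 24 listed, 13 were tested besides Cd34, 10 above 0 and 3 below, with a median of 0.27 (0.15 to 0.38 over 16 alternatives). None passed. Without Cd34 the list summed to 1744 ± 136 CPM in Cd34-positive and 1557 ± 151 CPM in Cd34-zero cells (SD, n = 4 libraries), higher in 4 of 4. Plac8 and Cd52 (2 of 13) were higher at an unadjusted p under 0.05, beside 2.02% of all genes tested. Both are named after their values were seen. Plac8, a gene of early myeloid and lymphoid progenitors, was 63.0, 108, 52.2 and 38.4 CPM in Cd34-positive cells against 3.59, 34.5, 35.6 and 13.9 CPM in Cd34-zero cells. Cd52, a small surface glycoprotein of lymphocytes, was 30.9, 60.5, 7.27 and 4.01 CPM in Cd34-positive cells against 11.9, 0.280, 0.424 and 0.840 CPM in Cd34-zero cells. Lsp1, a leukocyte actin-binding protein, averaged 447 ± 98.9 CPM in Cd34-positive and 377 ± 72.6 CPM in Cd34-zero cells (SD, n = 4 libraries). Mef2c, a transcription factor of lymphoid progenitors, averaged 313 ± 49.8 CPM in Cd34-positive and 338 ± 45.4 CPM in Cd34-zero cells (SD, n = 4 libraries), within the spread.

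Proliferation genes gave no single direction. S phase genes had 25 of 33 above 0 and a median of 0.28 (0.13 to 0.74 over 16 alternatives), and none passed. Mcm3, Mcm5, Mcm6 (subunits of the replicative helicase) and Ung (uracil DNA glycosylase) were higher at an unadjusted p under 0.05, named after their values were seen. They are 4 of 33 genes, beside 2.02% of all genes tested. Mcm3 was 172, 160, 185 and 48.6 CPM in Cd34-positive cells against 62.4, 32.2, 138 and 41.4 CPM in Cd34-zero cells. Summed S phase levels spread widely, from 1314 to 3209 CPM on the positive side and from 1122 to 3465 CPM on the zero side. The S phase sum was higher in Cd34-positive cells in 2 of 4 libraries. The S phase medians of single libraries had an SD of 0.85, larger than the median of 0.28. G2/M genes had 10 of 27 above 0 and a median of -0.18, which was below 0 in 13 of 16 alternatives (-0.91 to 0.28) and highest, at 0.28, when the 3 Car1-high cells were left out. Cyclins, CDKs and CDK inhibitors had a median of -0.25, and their sum was 1751 ± 96.1 CPM in Cd34-positive cells against 1819 ± 73.9 CPM in Cd34-zero cells (SD, n = 4 libraries), lower in 4 of 4.

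Erythroid genes had 11 of 14 below 0, with Car1 past the threshold, and a median of -0.72. That median was -0.19 without the 3 Car1-high cells and 0.12 without the 16 cells that had at least 3 counts of Mki67, Birc5 or Ccnb2. Blvrb, biliverdin reductase B, was 48.6, 120, 125 and 78.7 CPM in Cd34-positive cells against 117, 117, 366 and 136 CPM in Cd34-zero cells, its gap being widest in library 3, as for Car1. Car2, a carbonic anhydrase counted in every cell of both sides, averaged 2667 ± 360 CPM in Cd34-positive and 2646 ± 211 CPM in Cd34-zero cells (SD, n = 4 libraries). Myeloid genes had a median of 0.08. Among them Lyz2, lysozyme, averaged 987 ± 178 CPM in Cd34-positive and 836 ± 50.5 CPM in Cd34-zero cells, and Srgn, the granule proteoglycan serglycin, averaged 1911 ± 98.2 CPM in Cd34-positive and 1743 ± 139 CPM in Cd34-zero cells (SD, n = 4 libraries). Megakaryocyte and platelet genes had a median of 0.02, with 11 of 21 above 0.

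**Figure D5:**
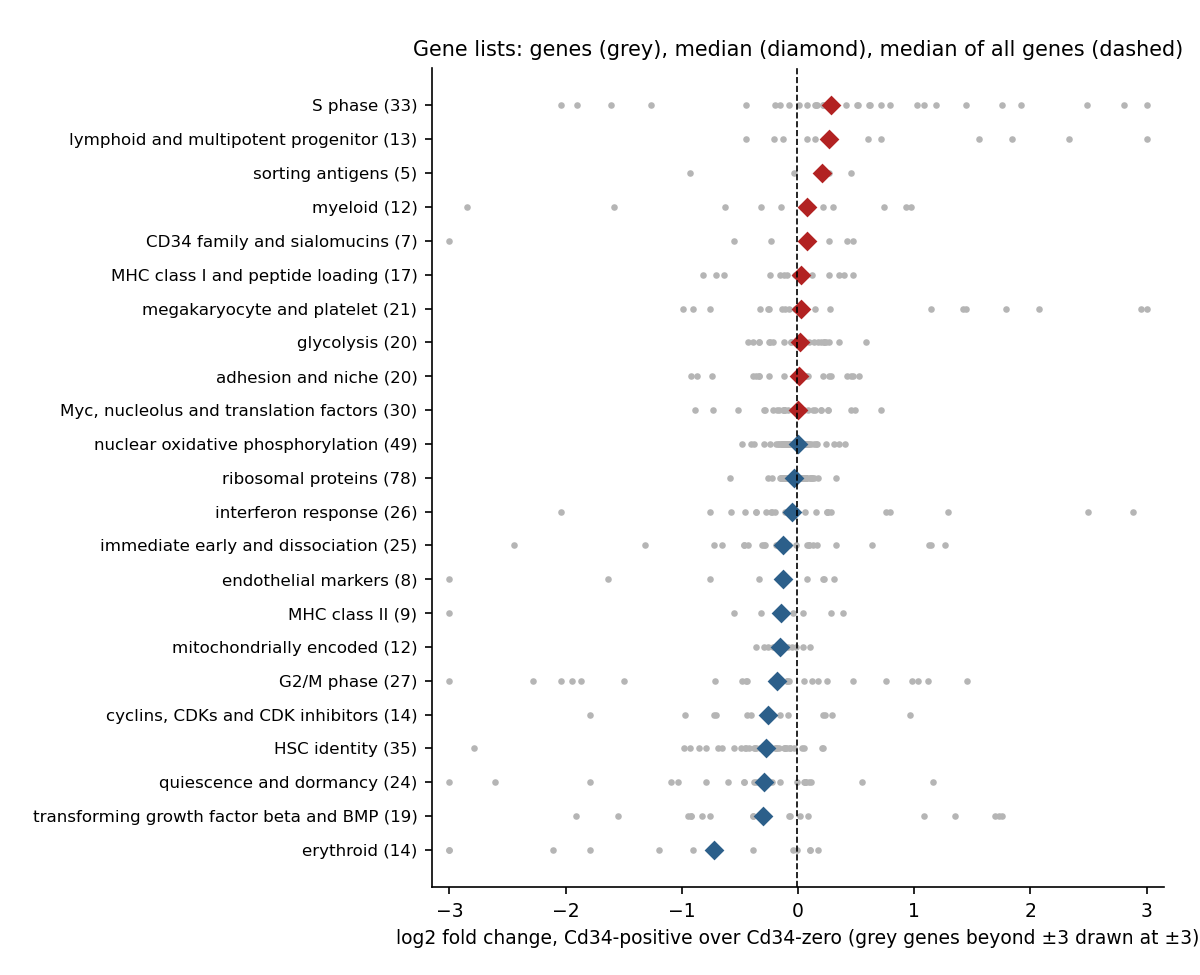
Log2 fold change of Cd34-positive over Cd34-zero cells (horizontal axis) for the genes (grey points) of each list with at least 5 tested genes (number in brackets), with diamonds at the list medians and a dashed line at the median of all genes tested, -0.01. S phase and lymphoid and multipotent progenitor genes have the highest medians, 0.28 and 0.27, and erythroid genes the lowest, -0.72, followed by -0.30 for the list of transforming growth factor beta and BMP, -0.29 for quiescence and dormancy and -0.27 for HSC identity.

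Metabolic and biosynthetic genes encoded in the nucleus had medians close to 0. Ribosomal protein genes had a median of -0.03, nuclear oxidative phosphorylation genes of -0.0015, glycolysis genes of 0.02 and Myc, nucleolus and translation factor genes of 0.00018. Mitochondrially encoded genes had 10 of 12 below 0 and a median of -0.16 (-0.21 to -0.11 over 16 alternatives), and summed to 13965 ± 981 CPM in Cd34-positive and 15043 ± 1072 CPM in Cd34-zero cells (SD, n = 4 libraries), lower in 4 of 4. By medians over single cells the direction was not the same, as their share was higher in Cd34-positive cells in 3 of 4 libraries. Medians of the remaining lists were 0.07 for the CD34 family and sialomucins, 0.20 for the sorting antigens, -0.13 for immediate early and dissociation genes, -0.05 for interferon response genes, -0.14 for MHC class II, 0.02 for MHC class I and peptide loading, 0.01 for adhesion and niche genes and -0.30 for transforming growth factor beta and BMP genes. No gene of these lists passed. Within the sialomucins, Selplg, the P-selectin ligand, was 187, 152, 131 and 158 CPM in Cd34-positive cells against 134, 182, 66.9 and 107 CPM in Cd34-zero cells. Cd24a, a small glycosylated surface antigen, averaged 582 ± 70.8 CPM in Cd34-positive and 685 ± 132 CPM in Cd34-zero cells (SD, n = 4 libraries).

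Markers of other cell types, endothelial markers apart, were low on both sides. The part of any of these markers in the results was not tested. All 12 endothelial markers were in the table and summed to 460 to 862 CPM in Cd34-positive and 541 to 748 CPM in Cd34-zero cells. Egfl7 and Tie1, which HSCs share with endothelium, led that sum, while Flt1 was at 0 in Cd34-positive cells and Plvap and Stab2 were at 0 in Cd34-zero cells. B cell markers, 6 of 10 in the table, summed to 74.0 to 108 CPM in Cd34-positive cells against 76.2 to 125 CPM in Cd34-zero cells, nearly all of it Cd79b, with Pax5 at 0 on the positive side and Ms4a1 at 0 on the zero side. T and NK cell markers, 6 of 12, summed to 32.1 to 112 CPM in Cd34-positive cells against 22.7 to 126 CPM in Cd34-zero cells, with Cd3e and Cd3d at 0 on the positive side. Klrb1c, the NK1.1 antigen of NK cells, led that sum at 50.7 ± 27.9 CPM in Cd34-positive and 52.3 ± 35.8 CPM in Cd34-zero cells (SD, n = 4 libraries), with a count in 17 of 109 Cd34-positive and 25 of 139 Cd34-zero cells. Lck, a T cell kinase, had a count in 13 Cd34-positive and 15 Cd34-zero cells. Stromal markers, 7 of 8, reached 57.7 CPM in Cd34-positive cells against 63.8 CPM in Cd34-zero cells, with Cxcl12 and Lepr at 0 on the positive side. Macrophage markers, 4 of 8, reached 39.8 CPM in Cd34-positive cells against 27.5 CPM in Cd34-zero cells, and the 1 mast cell marker in the table, Cpa3, reached 0.589 CPM in Cd34-positive cells and was at 0 in Cd34-zero cells.

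The Cd34-positive cells were also compared among themselves. They were split within each library at the median of their Cd34 CPM, which gave 13 or 14 Cd34-high and 13 to 15 Cd34-low cells per library. Summed Cd34 was 370, 431, 422 and 400 CPM in the Cd34-high cells, against 131, 102, 150 and 136 CPM in the Cd34-low cells, as the split required. Of 8670 genes tested, 0 passed in either direction (0%), with 266 at an unadjusted p under 0.05 (3.07%; 108 higher, 1.25%, and 158 lower, 1.82%) and 105 by DESeq2 at an adjusted p under 0.05. This comparison shares its cells with the previous one, so its values are set beside it only.

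Cd27 was among the 8 smallest p-values on the higher side. It was 217, 324, 313 and 290 CPM in Cd34-high cells, against 88.3, 94.5, 257 and 140 CPM in Cd34-low cells (log2 fold change 1.06, SE 0.30, unadjusted p = 0.0048 and adjusted p = 1.00, edgeR quasi-likelihood with Benjamini-Hochberg). The sums overlapped. Flt3 was 35.3, 25.4, 43.1 and 75.5 CPM in Cd34-high cells, against 17.1, 7.27, 12.1 and 0 CPM in Cd34-low cells. Lymphoid and multipotent progenitor genes as a list had 11 of 13 above 0 and a median of 0.80, beside a median of -0.07 over all genes tested. Lmo2, a transcription cofactor of blood stem cells, and Foxo3, a forkhead factor that guards HSC quiescence, were also among those 8 smallest p-values and did not pass. A shared direction in all 4 libraries was again part of the rule that chose them.

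Among the 8 smallest p-values on the lower side of that split were Ifitm3, Serpina3g, Gp9, Slfn2 and Klrb1c. Klrb1c was 0.630, 0.795, 0 and 19.7 CPM in Cd34-high cells, against 149, 111, 53.7 and 33.0 CPM in Cd34-low cells. Ifitm3 was 1339, 1273, 1519 and 1271 CPM in Cd34-high cells, against 2125, 2272, 1707 and 1673 CPM in Cd34-low cells, without overlap. Serpina3g, a cytosolic serpin that inhibits cathepsins, was 589, 917, 634 and 749 CPM in Cd34-high cells against 1668, 1235, 1725 and 856 CPM in Cd34-low cells. Ly6a was 425, 713, 459 and 479 CPM in Cd34-high cells against 720, 802, 798 and 747 CPM in Cd34-low cells. HSC identity genes had 22 of 35 below 0 in this split, with a median of -0.30, beside -0.07 over all genes tested. The share of all genes below 0 was not counted. Other lists also had medians below that of all genes. Among them were erythroid (-0.92, 8 of 11 below 0), megakaryocyte and platelet (-0.59, 13 of 17) and quiescence and dormancy (-0.36, 17 of 21). Nuclear oxidative phosphorylation (-0.21, 37 of 49) and ribosomal proteins (-0.13, 69 of 77) lay nearer to the -0.07 of all genes. Myeloid genes (6 of 9 above 0) and adhesion and niche genes (12 of 20) leaned to the Cd34-high side. Ctla2a was 856, 1424, 1571 and 679 CPM in Cd34-high cells against 812, 522, 632 and 1056 CPM in Cd34-low cells, so it was higher in libraries 1, 2 and 3 and lower in library 4. At 30000 counts the Cd34-high cells showed medians of 2734, 2493, 2766 and 2749 genes, against 2800, 2938, 2766 and 2811 genes in Cd34-low cells, and the part of this in the split was not tested.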

How the data were processed

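Single cells were prepared by STRT-seq, a modified Smart-seq2 protocol that tags each cell's cDNA with a barcode and reads 3′ ends, in 4 libraries. The deposited values are counts per gene and cell, whole numbers that the authors did not normalize. The submitters' processing notes name the GRCm38 build and, as tools, HTSeq 0.9.1, HISAT2 2.1.0 and Trimmomatic 0.36. The annotation is in no source used here. The sort, per the labels' protocols, used settings against doublets, and no doublet caller was run. No pair of cells had identical counts (0), and the table names cells by number, with no barcode to compare between libraries.

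Counts of Cd34-positive and Cd34-zero cells were summed per library and tested with edgeR 4.0.16 (TMM scaling, filterByExpr, quasi-likelihood F-test, library as block, Benjamini-Hochberg, threshold 0.05) in R 4.3.3. Both sides come from the same libraries, which is where the pairing comes from. Alternatives used DESeq2 1.42.0, limma 3.58.1 on log2(mean CPM + 5), other scalings, filters, Cd34 thresholds, thinning to 30000 counts and each library left out. Intervals are exact (Clopper-Pearson). The members, the 28 gene lists and the rule for named genes were chosen with earlier results of these data known. That rule takes 14 fixed genes, the 8 smallest p-values in each direction at a mean of at least 20 CPM and 1 sign in all 4 libraries, every list gene past the threshold and the 2 highest genes of each list. Of these, the highest genes of the lists are named only where a group is described. RefSeq held promoter windows for Cd34, Ctla2a and Cmtm7.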

Additional observations from a re-analysis of the deposited data

Results flagged for a closer look

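In 15 of 169 sets of 4 libraries examined (a gene, or a measure of depth or composition, on 1 side), a library stood apart from the other 3 by Dixon's 95% critical value, while chance alone does this in about 1 in 20 sets. On the Cd34-positive side, Apoe, the apolipoprotein, reached 1729 CPM and Esam, an adhesion molecule, 365 CPM in library 2, where Eif5 also stood apart at 512 CPM. In library 3 of that side, Dut, the dUTPase of S phase, was 348 CPM, Lck, a T cell kinase, was low at 5.56 CPM, and Car1 was 5.13 CPM. Fos, an immediate early factor, was 4773 CPM in library 4 and Mki67 was 53.3 CPM in library 1. On the Cd34-zero side, library 3 stood apart for Car1 at 507 CPM, Blvrb at 366 CPM, Pcbp1 at 186 CPM, Aldoa, the glycolytic aldolase, at 676 CPM, Rabac1 at 498 CPM and Sult1a1 at 258 CPM, the last 3 as the lowest of their sets. Serpinb1a was 17.7 CPM in library 1 of that side. Library 3 was thus the one that stood apart in 9 of the 15, and it also had the fewest counts per cell.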

How the results depend on the processing

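The counts of genes past the threshold, given as higher and lower in Cd34-positive cells (1 and 1), were the same under RLE scaling. They were 5 and 4 without the filter on low counts (13607 genes), 28 and 32 by DESeq2, 2 and 0 with cells thinned, 2 and 1 with the Cd34 rule applied to thinned counts, 2 and 1 with the runs of neighbouring cells kept, 1 and 0 without cycling cells, 3 and 0 by limma on mean CPM, and 1 and 0 without the 3 Car1-high cells, the last chosen after seeing the data. The causes were not tested. Low counts took Car1 out of the genes tested with cells thinned, without cycling cells, without library 3 and without the 3 Car1-high cells. Leaving out 1 library gave 0 to 2 higher and 0 to 2 lower, with 0 and 0 without library 3. Without the replicate block, that is without pairing the sides of a library, the counts were 1 and 0. Of the 60 DESeq2 calls, 2 had over 50% of their counts in 1 cell, as had 21 of 10006 genes tested, and the median share in the top cell was 21.0% for the calls and 8.39% for all genes. Within the Cd34-positive cells (0 and 0), the counts were 3 and 7 without the filter, 43 and 62 by DESeq2, and 0 to 0 and 0 to 1 with 1 library left out; there the block changed no count. The share of Cd34-positive cells was 49.97% at 1 count or more, 33.97% at 10 or more and 32.7% ± 4.55 (SD, n = 4 libraries) at 3 or more after thinning. The difference in mitochondrially encoded share turned to 0.0510 percentage points without library 1, in a range of -0.0526 to 0.0510 over libraries left out. That in ribosomal protein share turned to 0.105 without library 2 and 0.255 without library 3, in a range of -0.410 to 0.255. All 16 genes of smallest p kept their sign in every alternative that tested them (11 of 16 for Car1), as did 48 of 78 named genes, while 30 turned in at least 1. Of 432 list medians over alternatives, 406 moved by less than the SD between libraries. For some lists that SD was larger than the median, as for S phase (0.85 against 0.28) and G2/M (1.13 against -0.18). A median there could turn sign and still count among the 406. Genes under 20 CPM had standard errors too large for changes of modest size to be detectable.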

Other observations

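A few further genes were singled out after their values were seen, each at an unadjusted p under 0.05 and none past the adjusted threshold. Among megakaryocyte and platelet genes, Itga2b, the platelet integrin CD41, was 58.6, 49.4, 46.2 and 25.6 CPM in Cd34-positive cells, against 7.18, 12.1, 8.05 and 14.9 CPM in Cd34-zero cells, without overlap. Pf4, the platelet chemokine, was 44.1, 87.3, 146 and 86.7 CPM in Cd34-positive cells against 35.1, 49.3, 28.0 and 17.4 CPM in Cd34-zero cells, while Vwf of the same list was lower on the positive side. Receptors of transforming growth factor beta and BMP ligands went in opposite directions. Tgfbr2 was 40.9, 37.6, 39.3 and 18.6 CPM in Cd34-positive cells against 8.29, 7.29, 10.6 and 13.2 CPM in Cd34-zero cells, and Bmpr2 was 19.7, 8.13, 27.8 and 3.51 CPM in Cd34-positive cells against 29.8, 46.2, 54.6 and 45.4 CPM in Cd34-zero cells. In neither gene did the sides overlap.

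Klf4, a zinc finger factor induced by stress and handling, was 36.8, 85.2, 22.2 and 58.2 CPM in Cd34-positive cells, against 110, 110, 114 and 115 CPM in Cd34-zero cells. Igtp, an interferon-induced GTPase, was 128, 158, 113 and 58.4 CPM in Cd34-positive cells against 205, 224, 239 and 95.7 CPM in Cd34-zero cells. Itga6, the laminin-binding integrin, was 52.1, 51.2, 56.9 and 65.2 CPM in Cd34-positive cells against 97.8, 96.1, 62.3 and 125 CPM in Cd34-zero cells, lower in 4 of 4 libraries. Cldn5, a tight junction protein of endothelium, was 17.95, 0.602, 1.28 and 7.27 CPM in Cd34-positive cells against 40.3, 53.0, 225 and 9.03 CPM in Cd34-zero cells, with library 3 of the zero side highest.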
